A study of Homo sapiens with 12 samples.

Results

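The subject is a set of 10 protein genes that lie on the mitochondrial genome rather than in the nucleus: MT-ND1, MT-ND2, MT-ND3, MT-ND4, MT-ND5, MT-CYB, MT-CO1, MT-CO2, MT-CO3 and MT-ATP6. They were taken by gene symbol from a table of 61806 genes, by a rule that uses no measured value. Earlier results of these data were known when the set was chosen. Each gene was annotated to the mitochondrial chromosome. The table held 37 genes of that chromosome, of which 13 encode proteins, and the 3 protein genes not in the set (MT-ND4L, MT-ND6 and MT-ATP8) served as a comparison. All 10 passed the filter on low counts, as did 19505 genes in all. The cells were wild-type H1, a human embryonic stem cell line, first induced to mesendoderm with CHIR99021, an activator of WNT signaling, and then differentiated toward cardiomyocytes, heart muscle cells. RNA-seq covered 3 treatments at Days 12 and 16 with 2 libraries each, which gave 6 groups and 12 libraries. In NP-IWP2 the culture was left static (not passaged) and IWP2, an inhibitor of WNT signaling, was given. P-DF cultures (labelled Pass-ctrl) were passaged on Day 2 and went on in DF medium with no WNT inhibitor, and P-IWP2 cultures were passaged on Day 2 and given IWP2. A static group without IWP2 was not part of these libraries, so P-DF and NP-IWP2 differed both in passaging and in IWP2. The labels do not say whether the libraries of a group came from separate cultures, and the p-values measure only the spread between these libraries.

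Mitochondria carry a small circular genome that is transcribed in both directions as long precursors, from which the rRNAs, tRNAs and mRNAs are cut. Its mRNAs all encode subunits of the respiratory chain and of ATP synthase, the machines that pass electrons to oxygen and use the resulting proton gradient to make ATP, and the remaining subunits come from nuclear genes. MT-ND1 to MT-ND5 encode membrane subunits of complex I (NADH dehydrogenase), MT-CYB encodes cytochrome b of complex III, MT-CO1, MT-CO2 and MT-CO3 encode the core of complex IV (cytochrome c oxidase), and MT-ATP6 encodes the proton channel subunit of complex V (ATP synthase). Heart muscle is among the tissues richest in mitochondria, and mitochondrial mRNAs make up a large share of its RNA.

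The genes are packed with almost no space between them, which bears on how reads can be counted. In the GRCh38 build, to which the table's positions matched, they ran from MT-ND1 (chrM:3307-4262) to MT-CYB (chrM:14747-15887), all 10 on the plus strand, without introns. Several of them stop before the end of a codon, and the stop codon is completed only when a poly(A) tail is added to the cut RNA. Of the 10 genes, 5 ended with a lone T after the last full codon, MT-ND1 ended with TA, and 4 held a complete last codon. The last 24 bases of 4 genes are shown for these kinds of end, with the bases of the partial or complete last codon in capitals.
MT-CYB (chrM:15864-15887, plus strand): aaaacaaaatactcaaatgggccT
MT-ND1 (chrM:4239-4262, plus strand): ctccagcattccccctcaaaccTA
MT-ATP6 (chrM:9184-9207, plus strand): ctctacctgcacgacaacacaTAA
MT-CO1 (chrM:7422-7445, plus strand): gaacccgtatacataaaatctAGA
MT-ATP6 also begins inside MT-ATP8, its neighbour, which encodes another subunit of the same enzyme. The 46 bases that belong to both genes (chrM:8527-8572) are given in capitals with 10 bases on each side, because a read that falls in them cannot be assigned to one gene by position.
MT-ATP8 and MT-ATP6 (chrM:8517-8582, plus strand): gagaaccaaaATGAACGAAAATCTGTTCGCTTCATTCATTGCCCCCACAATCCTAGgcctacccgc
MT-ND4 shared 7 bases with MT-ND4L, and MT-ATP6 shared 1 base with MT-CO3.

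The libraries held between 14885589 and 19176239 counts on genes. With at least 15358 counts for every one of the 10 genes in every library, counting error was at most 0.807% of a value, so the spread between libraries set the precision. The 2 libraries of a group had a Pearson correlation of log2 CPM (counts scaled to library size) over genes of 0.985 to 0.991 in 5 groups, while the Day 12 P-IWP2 pair, replicates 5 and 6, had 0.917. Replicate 5 of that pair stood apart, with fibroblast markers (COL1A1, COL3A1, DCN, LUM, PDGFRA and POSTN) at 0.505% and epicardial markers (WT1, TBX18, TCF21, UPK3B and ALDH1A2) at 0.105% of its counts. In the 7 other passaged libraries these lists reached at most 0.0267% and 0.000175%. The static libraries of that day were not low in them. The Day 12 NP-IWP2 libraries had 0.481% and 0.482% on the fibroblast list and 0.0224% and 0.0385% on the epicardial list. The 11 cardiomyocyte markers of replicate 5, all of them detected, summed to 1.25% of counts, the lowest value of the 12 libraries. Because the test shares the spread of all groups, results of other groups moved with it as well.

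The 10 genes took up a larger part of the counts in most passaged libraries than in static ones. On Day 12 their share of all counts was 7.77% and 7.49% in the NP-IWP2 libraries and 9.80% and 9.96% in the P-DF libraries. In the P-IWP2 libraries of that day it was 5.73% in replicate 5 and 9.63% in replicate 6, so this group lay on both sides of the static one. On Day 16 the share was 8.32% and 7.74% in NP-IWP2, 10.7% and 12.1% in P-DF and 11.7% and 10.8% in P-IWP2. The static libraries of both days (7.49% to 8.32%) thus lay below all passaged libraries other than Day 12 P-IWP2 replicate 5 (9.63% to 12.1%), and the passaged libraries of Day 16 lay above those of Day 12. The group means were 7.63% ± 0.20, 9.88% ± 0.12 and 7.68% ± 2.75 for NP-IWP2, P-DF and P-IWP2 on Day 12, and 8.03% ± 0.41, 11.4% ± 0.99 and 11.2% ± 0.58 on Day 16 (SD, n = 2 for each).

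**Figure D1:**
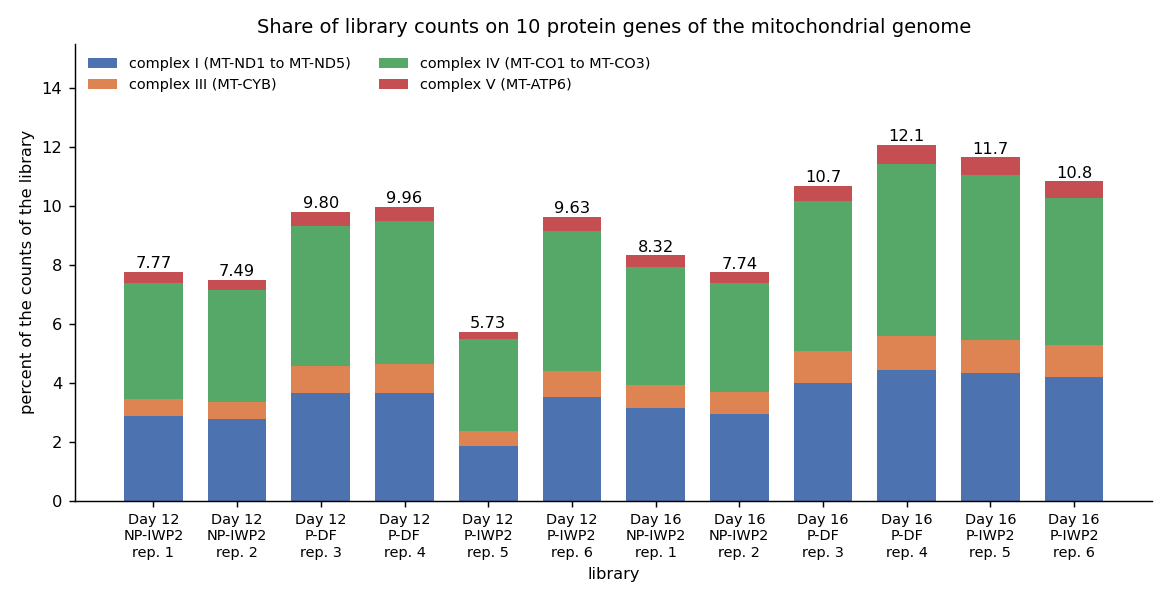
Share of the counts of each of the 12 libraries that fell on the 10 genes (y axis, percent), stacked by the respiratory complex of the subunits, with the sum above each bar. The 4 static libraries lay between 7.49% and 8.32% and the passaged ones between 9.63% and 12.1%, apart from Day 12 P-IWP2 replicate 5 at 5.73%.

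Complex IV genes held the largest part of these counts and complex V the smallest in every library. MT-CO1, MT-CO2 and MT-CO3 together were 3.11% to 5.85% of library counts, the 5 complex I genes 1.87% to 4.43%, MT-CYB 0.506% to 1.16% and MT-ATP6 0.253% to 0.649%. MT-CO1 was the gene with the most counts of the whole table in all 12 libraries, and MT-RNR2, the large mitochondrial rRNA, was the second. Between 6 and 8 of the 10 genes were among the 10 genes with the most counts in each library, where the nuclear genes were mostly ACTC1, MYH6, MYH7, TPM1 and TTN, which encode proteins of the heart muscle sarcomere. All 37 mitochondrial genes together took 6.97% to 15.8% of counts, of which the 10 genes were 76.5% to 82.2%. Per length the share was larger, since the 10 genes held 21.4% to 34.1% of the summed FPKM (counts scaled to exon length and library total) of a library.

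Levels of different genes were compared per length, as FPKM, and their order hardly moved between libraries. MT-CO1 was the highest of the 10 (12657 to 23580 FPKM over the 12 libraries) and MT-CO3, another core subunit of complex IV, was second in every library (8737 to 17329 FPKM). MT-CO2 (6897 to 12467 FPKM) and MT-ND4 (5054 to 13034 FPKM) took ranks 3 and 4, in either order. MT-CYB, MT-ND1 and MT-ATP6 followed at ranks 5 to 7. MT-CYB was at rank 7 in both Day 12 NP-IWP2 libraries and at rank 5 in all others, while MT-ND1 and MT-ATP6 exchanged places. MT-ND3 and MT-ND2 exchanged ranks 8 and 9, and MT-ND5, the longest of the 10 genes, was last in every library (2511 to 5487 FPKM). 

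**Figure D2:**
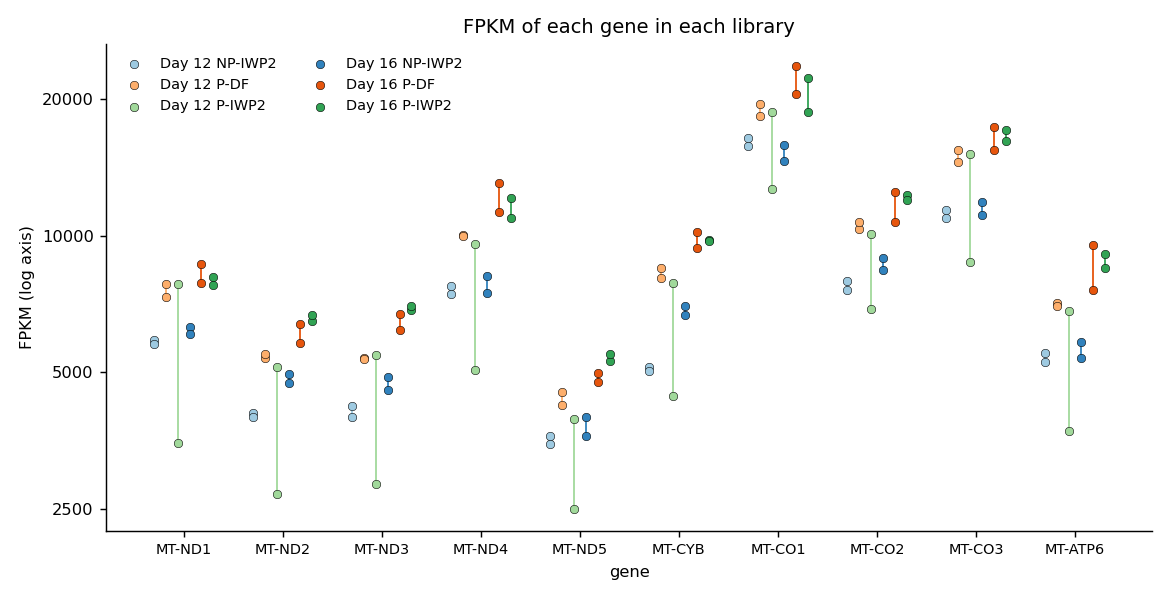
FPKM of each of the 10 genes (x axis) in each library (y axis, log scale), with a point for a library and a line between the 2 libraries of a group. For each gene the Day 16 P-DF and P-IWP2 points lie above the Day 16 NP-IWP2 points, and the Day 12 P-IWP2 line spans the widest range, down to 12657 FPKM for MT-CO1.

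On Day 16, all 10 genes had higher levels in both passaged treatments than in static culture, in every library of the groups. MT-CO1, the catalytic subunit of cytochrome c oxidase, was at 15849 and 14591 FPKM in NP-IWP2, 20526 and 23580 in P-DF and 22201 and 18684 in P-IWP2. MT-ATP6 was at 5849 and 5371 FPKM in NP-IWP2, 7599 and 9523 in P-DF and 9092 and 8476 in P-IWP2. MT-ND4, a proton-pumping subunit of complex I, was at 8160 and 7487 FPKM in NP-IWP2, 11282 and 13034 in P-DF and 12111 and 10928 in P-IWP2. For these 3 genes the lowest passaged library exceeded the highest static one. The groups were equally separate for the other 7 genes, where the static libraries ranged from 3631 FPKM (MT-ND5) to 11876 FPKM (MT-CO3) and the passaged ones from 4773 FPKM (MT-ND5) to 17329 FPKM (MT-CO3). Such separation was not rare: 33.3% of all tested genes had both P-DF libraries above both NP-IWP2 libraries on Day 16 (on TMM-scaled log2 CPM, the scale of all such counts here), and 30.6% had both P-IWP2 libraries above them.

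These differences were as large as 1.89-fold, but did not pass the test that used the spread of all 12 libraries. The test was edgeR's quasi-likelihood test with TMM normalization, in one model of the 6 groups, with Benjamini-Hochberg adjustment over all 19505 genes, and a gene is said to be called at an adjusted p under 0.05. For P-DF, the log2 fold changes ran from 0.56 (MT-ND2) to 0.86 (MT-ND4), with a median of 0.71 against -0.015 over all tested genes, and the standard errors were 0.27 to 0.37. None of the 10 was called (adjusted p from 0.111 for MT-ATP6 to 0.275 for MT-ND2), where 5.39% of all genes were called higher, and 6 of the 10 had an unadjusted p under 0.05, where 13.7% of all genes were higher at that level. For P-IWP2, the log2 fold changes ran from 0.64 (MT-ND1) to 0.92 (MT-ATP6), with a median of 0.78 against -0.030 over all genes. Again 0 of 10 were called (adjusted p from 0.0811 for MT-ATP6 to 0.261 for MT-ND1; 7.15% of all genes were called higher), and 7 had an unadjusted p under 0.05 (15.3% of all genes). The static libraries are shared by both comparisons.

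With some other tools or libraries, more of the 10 genes were called higher on Day 16. DESeq2 called 6 of 10 in P-DF (MT-ATP6, MT-CO1, MT-CO2, MT-CO3, MT-CYB and MT-ND4; 6.79% of all genes) and 8 in P-IWP2 (all but MT-ND1 and MT-ND2; 8.89% of all genes), whereas limma on log2(FPKM + 1) called 0 in both. Without Day 12 P-IWP2 replicate 5, which is in neither group, edgeR called all 10 genes higher in P-DF (adjusted p from 0.000339 to 0.00419; 14.4% of all genes called higher) and in P-IWP2 (adjusted p from 0.000181 to 0.00221; 16.3% of all genes). The fold changes hardly moved, with medians of 0.71 and 0.78, while the standard errors fell to 0.12 to 0.14, since the model pools the spread of all groups. Leaving out replicate 6 of that pair in place of replicate 5 gave the same counts, 10 of 10 in P-DF (14.1% of all genes) and 10 of 10 in P-IWP2 (16% of all genes). Both of these fits left a single library in the Day 12 P-IWP2 group, so the spread of that pair was not in the model. The calls did not appear when any single library outside that pair was left out instead. The SD between the 2 libraries of a group, pooled over groups, was 0.314 for the mean log2 CPM of the 10 genes, and 0.0951 without the Day 12 P-IWP2 group.

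Counts scaled by library totals gave smaller differences than TMM, because the TMM factors of the Day 16 passaged libraries (0.814 to 0.884) lay below those of the static ones (0.989 and 1.07). Scaled this way, the median log2 fold change over all tested genes moved to -0.25 in P-DF and -0.31 in P-IWP2, and that over the 10 genes was 0.48 and 0.51. All 10 genes remained higher in the passaged groups on this scale as well, with log2 fold changes from 0.33 to 0.65, and 0 were called.

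Markers of cell types also differed between passaged and static cells on Day 16. On Day 16 the 11 cardiomyocyte markers (TNNT2, TNNI1, TNNI3, MYH6, MYH7, MYL7, ACTN2, NKX2-5, RYR2, TTN and PLN), none at 0 in any library, summed to 1.53% and 1.80% of counts in NP-IWP2 and to 3.65% to 4.21% in the passaged libraries. Of the 11, edgeR called 6 higher in P-DF and 5 in P-IWP2, and 1 lower in both, MYH6, which encodes the alpha heavy chain of cardiac myosin (-2.02 ± 0.46 and -1.56 ± 0.45 on the log2 scale, named after its values were seen). MYH7, TNNT2, TNNI1 and NKX2-5 were called in neither treatment (adjusted p of 0.116 to 0.418 in P-DF and 0.105 to 0.384 in P-IWP2). RYR2 was not called in P-IWP2 (adjusted p = 0.106). These uncalled log2 fold changes were all positive, with TNNT2 at 0.42 ± 0.25 and 0.47 ± 0.25. MYH7 alone held 253545 to 287336 counts in the Day 16 passaged libraries, a large part of their sums. The 7 hepatic markers (AFP, ALB, APOA1, APOA2, AHSG, TTR and FGB) summed to 0.182% and 0.221% in NP-IWP2, where all 7 were detected, and to 0.00161% to 0.00221% in the passaged libraries, where 2 or 3 of the 7 were at 0. The 6 fibroblast markers summed to 0.816% and 0.832% in NP-IWP2 and to 0.016% to 0.0267% in the passaged libraries, where DCN was at 0 in 1 library. The 5 epicardial markers went from 0.0342% and 0.0528% to at most 0.000128%, with TCF21 and UPK3B at 0 in some libraries, and the 4 endothelial markers (PECAM1, CDH5, KDR and TEK) from 0.0300% and 0.0301% to 0.00634% to 0.00951%, with PECAM1 or TEK at 0 in some. On Day 12 the cardiomyocyte markers were at 2.12% and 2.44% in NP-IWP2, 2.65% and 2.89% in P-DF and 1.25% and 2.59% in P-IWP2, while the hepatic markers were at 0.103% and 0.146% in NP-IWP2 and at most 0.00118% in the passaged libraries. The endothelial markers overlapped on Day 12, at 0.122% and 0.110% in NP-IWP2, 0.142% and 0.102% in P-DF and 0.0103% and 0.147% in P-IWP2. The 5 pluripotency markers were at most 0.00932% in any library. The part of these markers in the mitochondrial differences was not tested, and in bulk RNA fewer cells of a type and less RNA per cell cannot be told apart.

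On Day 12, both P-DF libraries also exceeded both static libraries for all 10 genes, by less. MT-CYB differed most, with 5135 and 5034 FPKM in NP-IWP2 and 8049 and 8501 in P-DF, a log2 fold change of 0.79 ± 0.32 (SE). MT-CO1 differed least, with 16356 and 15698 FPKM in NP-IWP2 and 18362 and 19429 in P-DF, a log2 fold change of 0.32 ± 0.33. The median over the 10 genes was 0.48, both groups were separate for all 10 (31.8% of all genes), and 0 were called (adjusted p from 0.195 for MT-CYB to 0.594 for MT-CO1; 0.697% of all genes called higher). At an unadjusted p under 0.05 there was 1 gene, MT-CYB (7.54% of all genes), and DESeq2 and limma called 0. Without Day 12 P-IWP2 replicate 5, edgeR called 8 of 10 higher (all but MT-CO1 and MT-ND5; 8.25% of all genes), and without replicate 6 it called the same number (8.06% of all genes).

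The comparison of P-IWP2 with NP-IWP2 on Day 12 depended on which P-IWP2 library was used. MT-ND1 was at 5884 and 5767 FPKM in NP-IWP2, 3500 in P-IWP2 replicate 5 and 7824 in replicate 6. MT-ND2 was at 4072 and 3996 FPKM in NP-IWP2, 2699 in replicate 5 and 5143 in replicate 6. All 10 genes had this pattern, with replicate 5 below and replicate 6 above both static libraries, so the groups overlapped for each of them (15.6% of all genes had both P-IWP2 libraries above both static ones). The median log2 fold change was -0.016 and 0 were called (0.328% of all genes called higher). At an unadjusted p under 0.05 there were also 0 (4.43% of all genes were higher at that level), and DESeq2 and limma called 0. Without replicate 5 the median was 0.45 and 4 genes (MT-CYB, MT-ND1, MT-ND3 and MT-CO3) were called higher (5.45% of all genes), and without replicate 6 the median was -0.66 and 6 genes were called lower (8.72% of all genes). Each of these values rests on a single P-IWP2 library, whose spread was taken from the other groups.

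**Figure D3:**
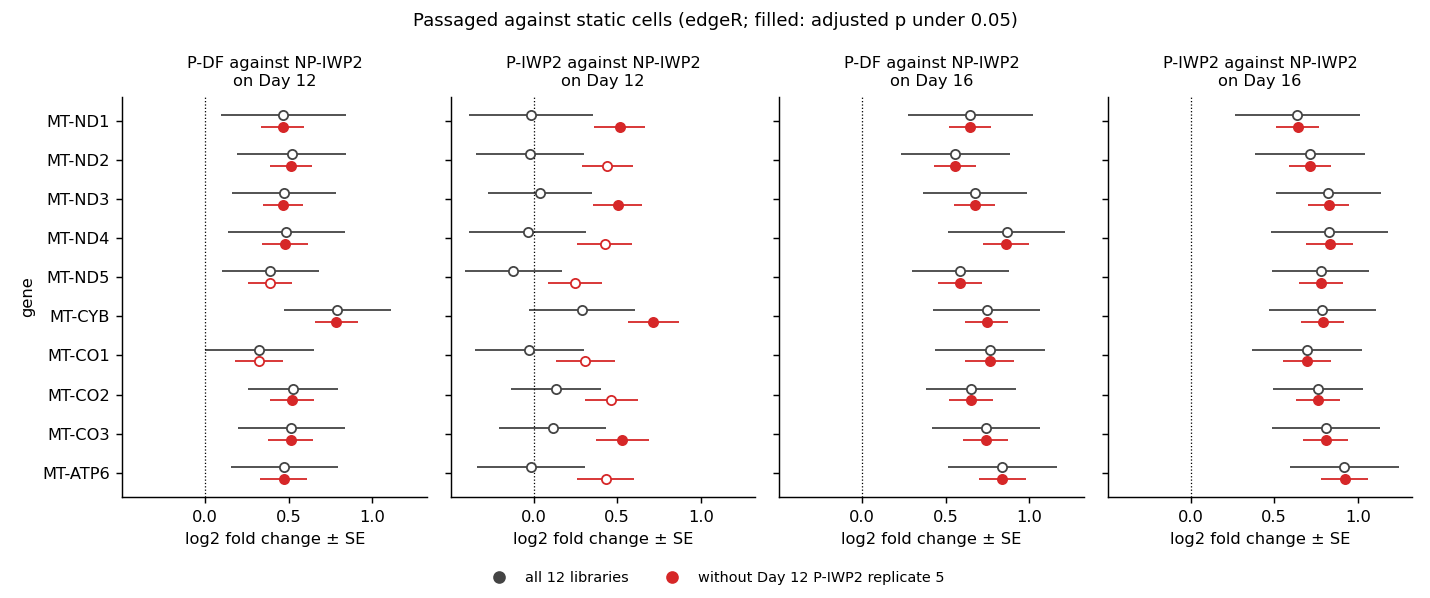
Log2 fold change of each of the 10 genes in passaged against static cells (x axis, with its standard error), in 4 panels for the passaged treatment and the day, by edgeR with all 12 libraries (grey) and without Day 12 P-IWP2 replicate 5 (red). Filled points are called at an adjusted p under 0.05, which holds for none of the grey points and for all red points on Day 16, while on Day 12 the P-IWP2 estimates move from a median of -0.016 to 0.45.

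From Day 12 to Day 16 6 of the 10 genes rose in P-IWP2, and the differences were smaller in the other treatments. In P-IWP2, MT-ND5 was at 2511 and 3959 FPKM on Day 12 and at 5303 and 5487 on Day 16. Its log2 fold change was 1.12 ± 0.29 (SE; adjusted p = 0.0238 by edgeR). MT-ND3, MT-ATP6, MT-ND2, MT-CO2 and MT-CYB were called as well (log2 fold changes of 0.90 to 1.12, adjusted p from 0.0312 to 0.0402), and the median over the 10 genes was 1.03 against -0.078 over all genes. The count of 6 of 10 stood beside 12.9% of all genes called higher, the days were separate for all 10 in TMM-scaled log2 CPM (27.3% of all genes) and for all but MT-ND1 in FPKM, and all 10 had an unadjusted p under 0.05 (19.5% of all genes). DESeq2 called all 10 (14% of all genes) and limma called MT-ND5 alone (7.6% of all genes). Without Day 12 replicate 5 the median fell to 0.59 and 7 were called (12.4% of all genes), and without replicate 6 it was 1.70 and all 10 were called (23.2% of all genes). The calls were few when a library of another kind was dropped: leaving out any of the other 10 libraries left 0 to 2 genes called, and with total counts 2 were called, with a median of 0.66 against -0.49 over all genes.

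In P-DF all 10 genes were higher in both Day 16 libraries than in both Day 12 libraries in TMM-scaled log2 CPM (33% of all genes), and all but MT-CO3 in FPKM, with log2 fold changes from 0.38 (MT-ND1) to 0.54 (MT-ND4) and a median of 0.45. None was called (adjusted p of at least 0.293; 6.79% of all genes called higher), none had an unadjusted p under 0.05 (14.6% of all genes), and neither DESeq2 nor limma called one. Without Day 12 P-IWP2 replicate 5 or without replicate 6, edgeR called all 10 (15.1% and 14.7% of all genes). In static NP-IWP2 cells the days were separate for 8 of the 10 genes in TMM-scaled log2 CPM (33.3% of all genes), all but MT-ND4 and MT-CO1, and for 6 in FPKM, where MT-CO3 and MT-ATP6 overlapped too, and the median log2 fold change was 0.21. MT-CYB had the largest value, 0.54 ± 0.32, from 5135 and 5034 FPKM on Day 12 to 7012 and 6674 on Day 16. None of the 10 was called (adjusted p of at least 0.382; 0.877% of all genes), 0 had an unadjusted p under 0.05 (9.99% of all genes), and 0 were called by DESeq2 or limma. Without Day 12 P-IWP2 replicate 5, or without replicate 6, MT-CYB alone was called (9.23% and 9.09% of all genes). Over the same days the cardiomyocyte markers of NP-IWP2 went from 2.12% and 2.44% of counts to 1.53% and 1.80%, and those of P-DF from 2.65% and 2.89% to 3.65% and 3.97%.

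IWP2 after passaging was compared by setting P-IWP2 against P-DF. On Day 16 the log2 fold changes of the 10 genes lay between -0.068 and 0.19, with a median of 0.074 and standard errors of 0.27 to 0.37. MT-ND3 and MT-ND5 were higher in both P-IWP2 libraries in TMM-scaled log2 CPM (21.6% of all genes), and MT-ND2 also in FPKM. MT-ND3 was at 6195 and 6717 FPKM in P-DF and 6868 and 6993 in P-IWP2. On Day 12 the median was -0.49 with replicate 5 and -0.047 without it, and 6 of the 10 genes had both P-IWP2 libraries below both P-DF libraries (15.3% of all genes). None of the 10 was called on either day, and neither was any gene called higher (0% of all genes). At an unadjusted p under 0.05 there were 0 of 10 in either direction on Day 12 and on Day 16, and DESeq2 and limma called 0. Of all genes, 8.2% on Day 12 and 4.58% on Day 16 were higher at that level, and the shares that were lower are not reported here. With Day 12 P-IWP2 replicate 6 left out, all 10 were called lower in P-IWP2 on Day 12 (14.1% of all genes), with a median of -1.14.

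Whether the difference between passaged and static cells changed with the day was tested as an interaction. For P-DF the median interaction over the 10 genes was 0.20 on the log2 scale and 0 were called (0.174% of all genes called higher; 0 of 10 and 5.94% of all genes at an unadjusted p under 0.05), as also by DESeq2 and limma. With Day 12 P-IWP2 replicate 5 left out, 0 were called as well (3.57% of all genes). For P-IWP2 the median was 0.73 and 0 were called (0.774% of all genes; 0 of 10 and 9.14% of all genes at an unadjusted p under 0.05; 0 by DESeq2 and limma). Without replicate 5 it was 0.31 and 0 were called (3.86% of all genes), and without replicate 6 it was 1.43 and all 10 were called higher (14.8% of all genes).

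The 10 genes moved together across the libraries. Over the 12 libraries, the Pearson correlation of log2 CPM between any 2 of them was 0.948 to 0.996 (45 pairs), and at least 0.927 without Day 12 P-IWP2 replicate 5, which is a description, since all points share libraries, depth and the scaling. Within the sum of the 10 genes, MT-CO1 was 32.4% and 32.3% in the Day 12 NP-IWP2 libraries and 34.0% in Day 12 P-IWP2 replicate 5, and 26.6% to 30.1% in the 9 other libraries. MT-CYB went the other way, with 7.54% and 7.67% in the Day 12 NP-IWP2 libraries and 8.83% to 10.3% in all others, so that the 2 groups of static libraries did not overlap (9.62% and 9.84% on Day 16). MT-ND1 was 5.84% in Day 12 P-IWP2 replicate 5 and from 6.85% to 7.77% elsewhere, but for 6.65% in Day 16 P-IWP2 replicate 5. These 3 genes were chosen after their values were seen.

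**Figure D4:**
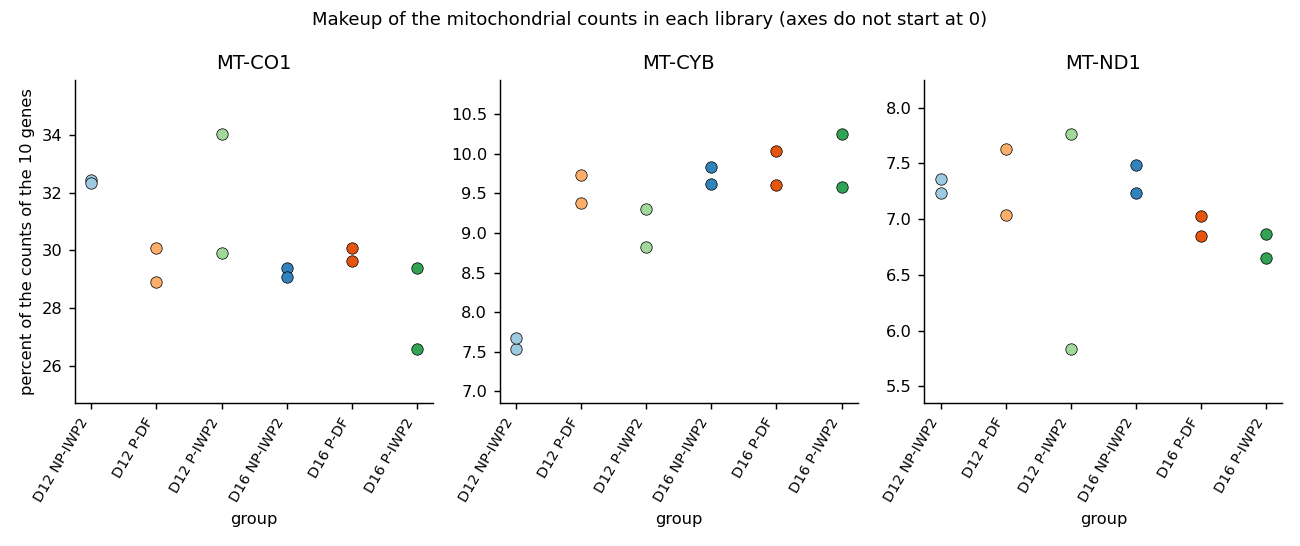
Counts of MT-CO1, MT-CYB and MT-ND1 as a percent of the counts of the 10 genes (y axes, which do not start at 0), with a point for each of the 2 libraries in each of the 6 groups (D12, Day 12; D16, Day 16). MT-CYB is at 7.54% and 7.67% in Day 12 NP-IWP2 and at 8.83% or more in every other library.

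Of the other protein genes and the rRNA genes of the same genome, MT-ATP8 in P-IWP2 and MT-RNR1 in P-DF were called higher on Day 16. MT-ATP8, MT-ND4L and MT-ND6, the protein genes not in the set, had log2 fold changes of 0.74, 0.84 and 0.70 in P-DF and 0.91, 0.81 and 0.96 in P-IWP2 against NP-IWP2 on Day 16. DESeq2 called 2 and 3 of them. By edgeR, only that of MT-ATP8 in P-IWP2 was called (adjusted p = 0.0406 by edgeR). MT-ND6 lies on the opposite strand, and without a stated strand setting its reads and those of the antisense precursor cannot be told apart. MT-RNR1, the small mitochondrial rRNA, was at 3061 and 2869 FPKM in Day 16 NP-IWP2, 5422 and 6007 in P-DF and 3646 and 2878 in P-IWP2. It was called higher in P-DF (1.18 ± 0.30 on the log2 scale, adjusted p = 0.0298) and not in P-IWP2 (0.41 ± 0.30, adjusted p = 0.367), where the groups overlapped in FPKM. Leaving out Day 12 P-IWP2 replicate 5 or 6 brought the P-IWP2 value of MT-RNR1 to adjusted p = 0.0297 and 0.0288, and all 6 values of the other protein genes to at most 0.00127. Leaving out Day 16 NP-IWP2 replicate 2 ended the calls of MT-RNR1 in P-DF (adjusted p = 0.186) and of MT-ATP8 in P-IWP2 (adjusted p = 0.242). MT-RNR2 had log2 fold changes of 1.04 ± 0.37 and 0.86 ± 0.37 (adjusted p = 0.0874 and 0.136), and was called in both without Day 12 P-IWP2 replicate 5 (adjusted p = 0.000133 and 0.000556). Between the passaged treatments on Day 16, MT-RNR1 was lower in both P-IWP2 libraries than in both P-DF libraries (-0.77 ± 0.30, adjusted p = 0.553). Of the 22 mitochondrial tRNA genes, 18 were at 0 in all 12 libraries and 21 had fewer than 20 counts in every library, with MT-TP (at most 5142 counts) as the exception. On Day 16 MT-TP was at 1803 and 1554 FPKM in NP-IWP2, 3066 and 4016 in P-DF and 4182 and 2943 in P-IWP2. Both passaged groups thus lay above the static one, and the test of this gene is not reported here.

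Copies of the mitochondrial genome in the nucleus can take reads from the genes described here. The table held 402 such pseudogenes, of which 3 had over 1000 counts in the 12 libraries together, MTATP6P1, MTND2P28 and MTCO1P12, all in one stretch of chromosome 1. MTATP6P1 (chr1:633696-634376) differed from MT-ATP6 at 10 of 681 bases, MTND2P28 (chr1:629640-630683) from MT-ND2 at 17 of 1042 and MTCO1P12 (chr1:631074-632616) from MT-CO1 at 20 of 1542. A window of 60 bases shows how few bases tell MT-ATP6 from its copy, with the 3 bases that differ in capitals.
MT-ATP6 (chrM:8642-8701, plus strand): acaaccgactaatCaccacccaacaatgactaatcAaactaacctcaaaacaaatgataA
MTATP6P1 (chr1:633811-633870, plus strand): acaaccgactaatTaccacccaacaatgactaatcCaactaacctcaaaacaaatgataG
MTATP6P1 held 11.04% to 11.96% of the reads of the pair in every library, MTND2P28 held 3.36% to 3.80%, and MTCO1P12 held 0.137% to 0.169%. With the reads of the copies added to the genes, no log2 fold change of MT-ATP6, MT-ND2 or MT-CO1 moved by more than 0.0128. The sequences are those of the reference and not of the H1 mitochondrial genome.

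Some nuclear genes for subunits of the same complexes were higher in passaged than in static cells on Day 16. The mean share of counts on the nuclear subunits went from 0.933% on Day 12 to 0.793% on Day 16 in NP-IWP2. It went from 1.09% to 1.04% in P-DF and from 0.925% to 1.08% in P-IWP2. Of the 76 nuclear subunits of complexes I, III, IV and V, 15 were called higher by edgeR in P-DF and 35 in P-IWP2 (5.39% and 7.15% of all genes), with median log2 fold changes of 0.62 and 0.77, beside 0.71 and 0.78 for the 10 mitochondrial genes. Without Day 12 P-IWP2 replicate 5, or without replicate 6, 70 and 74 were called. For complex I the count with all libraries was 6 and 20 of 37, for complex III 3 and 7 of 9, for complex IV 2 and 4 of 13, and for complex V 4 and 4 of 17, and without replicate 5 it was 33 and 36, 9 and 9, 12 and 13, and 16 and 16. The 4 subunits of complex II, which has no mitochondrially encoded part, had medians of 0.64 and 0.71, with SDHB called in P-IWP2, and all 4 called in both treatments without Day 12 P-IWP2 replicate 5. UQCRQ, a small subunit of complex III, differed most among the named nuclear genes, with 17.6 and 17.1 FPKM in NP-IWP2 and 32.9 and 38.0 in P-IWP2 (1.31 ± 0.20, adjusted p = 0.00401 by edgeR). COX7B of complex IV and ATP5PB and ATP5MF of complex V were called in both treatments too, with log2 fold changes of 0.73 to 1.04. On average the 10 mitochondrial genes stood 139 to 193 times above the nuclear subunits in FPKM. The ratio of their summed counts was 7.85 to 9.14 in the Day 12 libraries and 9.98 to 11.3 in the Day 16 libraries, with no overlap between the days.

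Genes for the machinery that copies, transcribes and translates the mitochondrial genome were tested in the same comparisons. Of all genes, 5.39% were called higher in P-DF and 7.15% in P-IWP2. Of the 17 genes for transcription and replication of mitochondrial DNA, edgeR called 0 higher and 1 lower in P-DF, and 1 higher and 1 lower in P-IWP2. Their medians were 0.20 and 0.018 on the log2 scale, and -0.030 and -0.26 with total counts. At an unadjusted p under 0.05, 3 and 2 were higher, DESeq2 called 0 and 1 higher and limma 0 and 1, and without Day 12 P-IWP2 replicate 5, or without replicate 6, edgeR called 3 and 4 higher. TFAM, which packages the genome and starts its transcription, was at 10.6 and 11.3 FPKM in NP-IWP2, 10.5 and 10.9 in P-DF and 9.77 and 8.07 in P-IWP2. Its log2 fold changes were 0.20 ± 0.12 and -0.018 ± 0.12 (adjusted p = 0.291 and 0.937 by edgeR), and were -0.030 and -0.29 with total counts. POLRMT, the mitochondrial RNA polymerase, had 0.31 ± 0.22 and 0.21 ± 0.22 (adjusted p = 0.366 and 0.527), and the second was -0.059 with total counts. LRPPRC, which stabilises mitochondrial mRNAs, had 0.42 ± 0.16 and 0.32 ± 0.16 (adjusted p = 0.103 and 0.182). TOP1MT, the mitochondrial DNA topoisomerase, was lower, at 1.26 and 1.41 FPKM in NP-IWP2, 0.56 and 0.54 in P-DF and 0.79 and 0.53 in P-IWP2 (-1.05 ± 0.22 and -0.75 ± 0.22, adjusted p = 0.0135 and 0.0422). LRPPRC was called in both treatments without Day 12 P-IWP2 replicate 5 (adjusted p = 0.00619 and 0.0237), while TFAM (0.142 and 0.918) and POLRMT (0.0517 and 0.162) were not. TFB1M, an rRNA methyltransferase of the mitochondrion, was called higher in P-IWP2 (0.97 ± 0.18, adjusted p = 0.00834) with 0.59 ± 0.18 in P-DF (adjusted p = 0.0574, and 0.0120 without Day 12 P-IWP2 replicate 5).

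Of the 20 genes for processing and stability of mitochondrial RNA, edgeR called 0 in P-DF and 3 higher in P-IWP2. At an unadjusted p under 0.05, 4 were higher in each, DESeq2 called 0 and 3 and limma 0 and 2, and without Day 12 P-IWP2 replicate 5, or without replicate 6, edgeR called 8 and 10. REXO2, an exonuclease for short RNA, had the smallest adjusted p in P-IWP2 (0.84 ± 0.15, adjusted p = 0.00631). Of 77 proteins of the mitochondrial ribosome, 6 and 14 were called higher, where 5.39% and 7.15% of all genes were. Among them were MRPS18B in both treatments (0.83 ± 0.19 and 0.79 ± 0.19) and MRPS11 in P-IWP2 (0.99 ± 0.18). Of 12 translation and insertion factors 1 and 2 were called, MTIF2 in both (0.54 ± 0.14 and 0.62 ± 0.14). None of 13 genes for mitochondrial mass and import, such as VDAC1 and TOMM20, was called by edgeR in either treatment, with medians of 0.35 and 0.36. At an unadjusted p under 0.05, 5 and 6 of the 13 were higher, DESeq2 called 3 and 4 and limma 0 in both, and without Day 12 P-IWP2 replicate 5, or without replicate 6, edgeR called 7 in each. Without replicate 5 the mitochondrial ribosome counts were 35 and 46, and those of the translation factors 8 and 8. Cytosolic ribosomal protein genes, a measure of RNA makeup, had medians of 0.0076 and -0.078 over 83 genes, and of -0.22 and -0.36 with total counts. Of the calls of single nuclear genes named here, only that of UQCRQ in P-IWP2 held by edgeR without Day 16 NP-IWP2 replicate 2, the others having adjusted p from 0.0672 for MRPS11 in P-IWP2 to 0.26 for ATP5MF in P-DF. For each fit and threshold, the share of all genes called higher is that given above for the 10 genes. The share for limma is not reported here. No test between these lists was made.

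**Figure D5:**
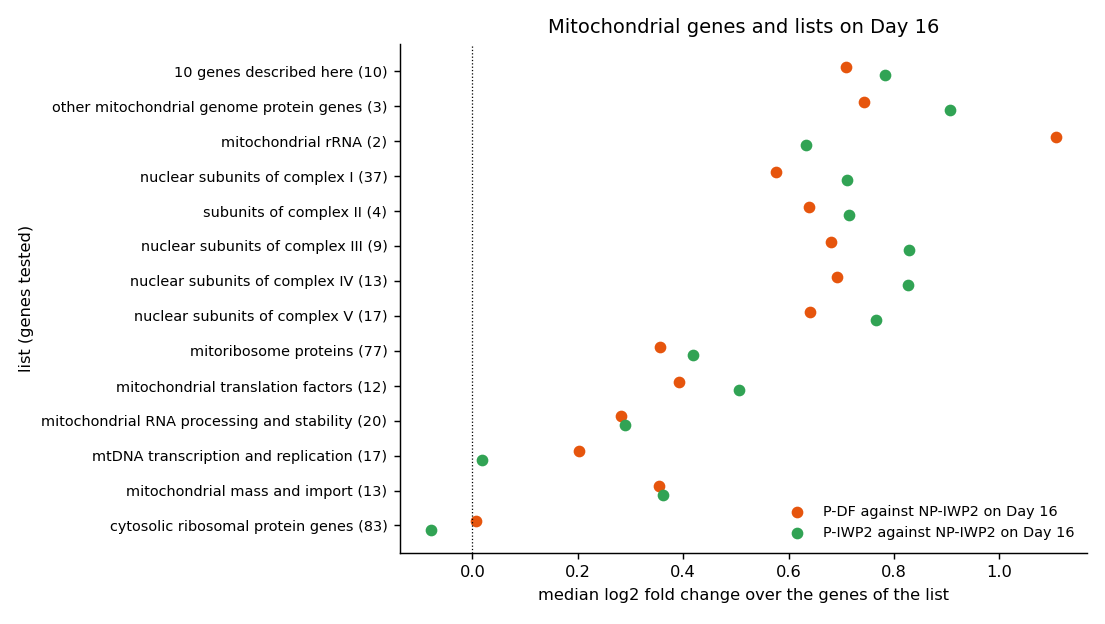
Median log2 fold change (x axis) of the 10 mitochondrial genes and of the other lists of genes (y axis, with the number of genes tested) in P-DF and in P-IWP2 against NP-IWP2 on Day 16, by edgeR. The 10 genes (0.71 and 0.78) lie near the nuclear subunits of complexes I to V, and genes for transcription and replication of mitochondrial DNA lie at 0.20 and 0.018.

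Outside the mitochondrial genome, 4 genes were among those that followed the mean log2 CPM of the 10 genes most closely over the 12 libraries. The pseudogene MTATP6P1 had a Pearson correlation of 0.992, but it held 11.04% to 11.96% of the reads of its pair with MT-ATP6 in every library. Its value is thus not independent of MT-ATP6, which is part of the mean. COPS5, a subunit of the COP9 signalosome, had 0.991, PITPNA, a phosphatidylinositol transfer protein, 0.990, and USP2, a deubiquitinase, 0.989. USP2 was at 9.42 and 8.16 FPKM in Day 12 NP-IWP2, 4.51 in Day 12 P-IWP2 replicate 5 and 17.7 to 21.1 in the Day 16 passaged libraries. Without replicate 5 the 4 correlations were 0.982 to 0.988. High values were not rare, as 949 of 17123 genes with a symbol (5.54%) had a correlation over 0.9, and all points share the same libraries and scaling.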

How the data were processed

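RNA was taken from H1-derived cells in 12 libraries (6 groups of 2). Per the labels, the authors made cDNA with the NEBNext Single Cell/Low Input module and libraries with a SMRTbell kit, made for long reads, while the tools named are for short reads. Read length is not given in the sources used here, and it bears on FPKM and on reads in gene overlaps or on nuclear copies. The submitters' processing notes name Cutadapt 1.9.1, HISAT2 2.0.1, hg38, HTSeq 0.6.1 and DESeq2, and strand and overlap settings are not given in the sources used here. The authors deposited one table of raw read counts per gene and of FPKM, and each FPKM equals the count per exon length and library total within 0.01. The kit amplifies cDNA and no molecular identifiers are named, so counting error is a lower limit.

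Counts were analysed across all genes with edgeR 4.0.16 (R 4.3.3; filterByExpr, TMM, quasi-likelihood test, all 12 libraries in one model of 6 groups). Standard errors were taken as the log2 fold change divided by the root of the F statistic. Alternatives were DESeq2 1.42.0, limma 3.58.1 with trend on log2(FPKM + 1) for genes with a mean FPKM of at least 1, total counts in place of TMM, scaling without mitochondrial genes, no filter, only the groups compared, a replicate block, and each library left out. The steps were tested on simulated data with the same spread in every library. That simulation held no library that stood apart as Day 12 P-IWP2 replicate 5 did, so it does not bear on that case.

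The members and lists were chosen with earlier results of these data known. Named genes were the 10 members, TFAM, POLRMT and LRPPRC, and from each list the gene with the smallest adjusted p in each Day 16 comparison with static cells, if called. Further genes were the 5 with the highest correlation with the members. Some genes that this rule names are not reported here. FASTKD4 was counted under TBRG4, its symbol in the table. Equal replicate numbers on the 2 days did not pair libraries: the correlation of their deviations over genes was 0.0754, -0.00154 and -0.0310 in NP-IWP2, P-DF and P-IWP2. No batch was given by the labels. Sequences came from the GRCh38 reference, with GENCODE v44 positions. Tables and figures were made with Python 3.11.15, pandas 2.3.3 and matplotlib 3.10.9.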

Additional observations from a re-analysis of the deposited data

How the results depend on the processing

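The log2 fold changes of the 10 genes kept their direction in 6 comparisons (P-DF on both days, P-IWP2 on Day 16 and the 3 time comparisons) under every alternative run, apart from MT-CO1 in NP-IWP2 over time, which was -0.075 with total counts and with limma and ranged from -0.079 (without Day 16 NP-IWP2 replicate 1) to 0.16 with single libraries left out. On Day 16, TFAM was -0.030 in P-DF with total counts and -0.027 with limma, and ranged from -0.0939 to 0.051 (without Day 16 P-IWP2 replicate 6) in P-IWP2 with single libraries left out, and POLRMT in P-IWP2 was -0.059 with total counts and -0.053 with limma.

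The number of genes called moved more. In P-DF on Day 12 it was 1 without the filter (2.35% of all genes called higher) and 9 with only the groups compared (12.5%). On Day 16 it was 6 (DESeq2), 10 (no filter; 4.32%) and 10 (only the groups compared; 17.3%) in P-DF, and 8, 10 (5.18%) and 8 (12.6%) in P-IWP2. Over time, only the groups compared gave 2 in NP-IWP2 (14.8%), 6 in P-DF (18.9%; without the filter 2 and 4.67%) and 0 in P-IWP2 (0%), where total counts gave 2, DESeq2 10, no filter 10 (7.16%) and limma 1. The interaction for P-IWP2 was called for 4 without the filter (2.63%). With each library left out in turn, the calls ranged from 0 to 8 and 0 to 10 in P-DF on Day 12 and Day 16, from 0 to 6 and 0 to 10 in P-IWP2, from 0 to 1, 0 to 10 and 0 to 10 over time in NP-IWP2, P-DF and P-IWP2, from 0 to 10 in P-IWP2 against P-DF on Day 12 and in the P-IWP2 interaction, and stayed at 0 in P-IWP2 against P-DF on Day 16 and in the P-DF interaction. In P-DF on both days and over time, and in P-IWP2 on Day 16, calls came only when a library of the Day 12 P-IWP2 pair was left out. Scaling without mitochondrial genes left every count as reported. The cause of these moves was not tested. With the replicate number as a block, 0, 0 and 6 genes were called over time in NP-IWP2, P-DF and P-IWP2, and 0 in both interactions, as without it.

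As a share of the counts of protein-coding genes the 10 genes held 7.97%, 10.4%, 8.03%, 8.36%, 12.0% and 11.8% in NP-IWP2, P-DF and P-IWP2 on Day 12 and then on Day 16, and as a share of FPKM 25.8%, 31.5%, 26.1%, 26.7%, 32.8% and 32.6%. A single library left out gave 7.49% to 7.77%, 9.80% to 9.96%, 5.73% to 9.63%, 7.74% to 8.32%, 10.7% to 12.1% and 10.8% to 11.7%. With 2 libraries per group, depth did not limit these values and the spread between libraries did.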
